A study of Mus musculus with 6 samples.

Results

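Chemokines are small secreted proteins that guide leukocytes, and their receptors are G protein-coupled receptors on those cells. Their transcripts were examined in small intestines without functional Cftr, the chloride and bicarbonate channel of epithelial cells, in mice. The members were all probe sets (the groups of short probes by which the array reads a transcript) that the platform annotation gives a single gene symbol of the Ccl, Cxcl, Xcl1, Cx3cl1, Ccr, Cxcr, Cx3cr1, Ackr, Pf4 or Ppbp kind. This gave 48 of 12422 probe sets, standing for 43 of 8251 named genes: 25 chemokines and 18 receptors. Probe sets annotated to several genes, 4 of them with a gene of these families, were set aside.

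The tested mice were 3 Cftr null animals, genotype CFTR(-/-), and the comparison group was 3 Cftr control animals, genotype CFTR(+/+). All 6 were 40 days old, congenic on the black6 background and fed Peptamen, a liquid diet, from an age of 10 days against obstruction of the gut. Each group held 2 males and 1 female, the females being null replicate 2 and control replicate 3. RNA came from the entire small intestine, 1 mouse per array, so every value is a mean over the whole organ and all its cells. The altered part of Cftr and any shared litters are details not given in the sources used here.

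In a CXC chemokine a residue separates the first cysteines, which adjoin in a CC chemokine. Among CXC chemokines, those with a glutamate-leucine-arginine (ELR) motif, such as Cxcl1, Cxcl2 and Cxcl5, bind Cxcr2 and attract neutrophils, whereas Cxcl9 and Cxcl10 are induced by interferon and bind Cxcr3 on T and NK cells. In the small intestine, epithelial Ccl25 draws lymphocytes that carry Ccr9, and Ccl11 (eotaxin) draws eosinophils through Ccr3.

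Values are intensities on an arbitrary scale, which the deposited table sets so that all 6 arrays share a trimmed mean of 500.3. The number of arrays limits the precision of every value. Cftr itself read 325.9, 295.6 and 368.5 in null replicates 1 to 3, against 801.6, 1017.5 and 1002.0 in control replicates 1 to 3. It was thus lower in every null mouse, and its log2 change was -1.47 (SE 0.15, adjusted p = 0.00421). Further probe sets for Cftr lay too low to test and overlapped between the groups. All 12 measured genes of the small intestinal epithelium list, among them villin (Vil1), were bright enough to be tested. No probe set's level is set against another's below, since probes differ in how brightly they report.

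Most members were dim. A probe set was tested only where 3 or more of the 6 arrays put it above 109.7, the 40th percentile over the whole table. Of the 48 member probe sets, 28 did not reach this (58.3%), against 38.8% of all probe sets. Receptor probe sets went untested more often, 14 of 18 (77.8%), against 14 of 30 chemokine probe sets (46.7%). The 20 tested probe sets stood for 18 genes, and 25 genes had no tested probe set. Of these 25, 20 did not exceed 109.7 in any mouse: 9 chemokines, with values between 10.8 and 103.5, and 11 receptors, with values between 7.4 and 98.8. In whole-organ RNA, fewer cells of a type and less RNA per cell cannot be told apart. A dim probe set may also hold probes that report weakly.

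Transcripts of 2 neutrophil-attracting chemokines, Cxcl1 and Cxcl5, rose in Cftr null mice, and no member passed the test as lower. These 2 were among 20 tested member probe sets, whereas 1.13% of all 7601 tested probe sets were called higher (86) and 1.87% lower (142). The test was limma's moderated test on log2(value + 12), adjusted by Benjamini-Hochberg over the 7601, with a threshold of 0.05. At an unadjusted p under 0.05 there were 4 members higher and 3 lower, 7 of 20, against 17.3% of all tested probe sets. The median log2 change of the 20 was -0.11, against 0.03 over all 7601. Groups did not overlap in 9 of the 48 member probe sets with null higher (18.8%), against 10.4% of all 12422 probe sets. They did not overlap in 4 with null lower (8.33%), against 8.65% of all probe sets, so this last share lay near the background. The 9 included 2 probe sets of Cxcl1, which are not independent. Both called probe sets entered the test only through the 3 null mice, since all their control values lay under 109.7, so the count of 2 carries a choice by the group that was high. With no filter, over all 12422 probe sets, the called Cxcl1 probe set had an adjusted p of 0.0209 and Cxcl5 one of 0.0497. The other Cxcl1 probe set did not pass there (log2 change 2.11, SE 0.50, adjusted p = 0.111).

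**Figure D1:**
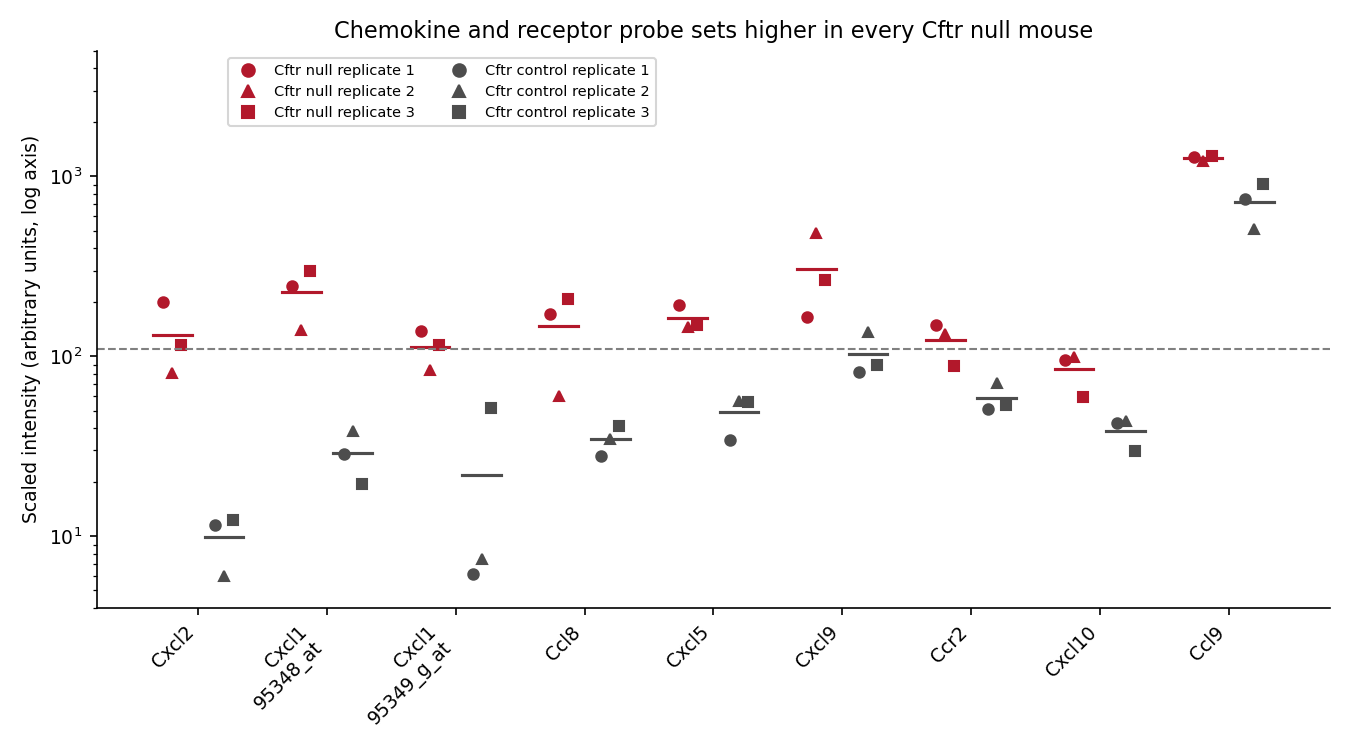
Scaled intensity (log axis, arbitrary units) of the 9 member probe sets whose 3 Cftr null mice (red, left) all lay above the 3 Cftr control mice (grey, right); each point is a mouse, short lines are group means, and the dashed line is 109.7, the level used as a filter. Control values lie under the line except the 3 of Ccl9 and 1 of Cxcl9, and Ccl9 has the narrowest spread among null mice.

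All 3 ELR chemokines with a probe set, Cxcl1, Cxcl2 and Cxcl5, lay higher in every null mouse than in any control. Cxcl1, also known as KC, read 247.8, 140.2 and 296.8 in null replicates 1 to 3, against 28.5, 38.5 and 19.6 in control replicates 1 to 3. The lowest null mouse thus stood well above the highest control, and all controls lay under the filter level. The means were 228.3 ± 80.1 in nulls and 28.9 ± 9.46 in controls (SD, n = 3 each), a log2 change of 2.52 (SE 0.37, adjusted p = 0.0151). Because the control mean lies under the filter level, the fold was given as a bound, at least 1.89-fold higher. A second probe set for Cxcl1, with a name ending in _g_at that marks possible cross-hybridization, read 138.0, 84.2 and 115.1 in nulls, against 6.2, 7.5 and 51.9 in controls. It was too dim to be tested but did not overlap either. In the fit with no filter it did not pass (adjusted p = 0.111).

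Cxcl5, also known as LIX, read 194.3, 144.8 and 149.1 in null replicates 1 to 3, against 34.2, 56.7 and 56.0 in control replicates 1 to 3. Again no control reached the lowest null value. The means were 162.7 ± 27.4 in nulls and 49.0 ± 12.8 in controls (SD, n = 3 each), with a log2 change of 1.53 (SE 0.30, adjusted p = 0.0416), or at least 1.43-fold higher. Cxcl2, also known as MIP-2, read 200.8, 80.6 and 115.6 in nulls, against 11.5, 6.0 and 12.4 in controls. Its null values lay about the filter level and its control values near the floor of the scale, so it was not tested; its mean was 132.3 ± 61.8 in nulls and 9.97 ± 3.47 in controls (SD, n = 3 each). With no filter on low values, Cxcl2 passed over all 12422 probe sets (log2 change 2.64, adjusted p = 0.0201). Cxcl1 and Cxcl2 are near relatives in sequence, and how far their probes share signal was not tested.

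The calls did not hold in every fit that left out a mouse, while the log2 changes stayed near their size. They lay between 2.31 and 2.82 for Cxcl1 and between 1.34 and 1.63 for Cxcl5 without each mouse in turn. Without null replicate 1, Cxcl1 had an adjusted p of 0.0899, without null replicate 3 one of 0.0892 and without control replicate 1 one of 0.0517, so that the call was lost each time. In these fits the 86 probe sets called higher over the whole table also fell, to 17, 28 and 31 in the same order. The call of Cxcl5 was lost without any single mouse of the 6 (adjusted p between 0.0675 and 0.169), in males alone (log2 change 1.69, adjusted p = 0.138) and with sex as a covariate (log2 change 1.53, adjusted p = 0.0624).

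Cxcl5, Cxcl1 and Cxcl2 belong to a run of 7 neighbouring chemokine genes on mouse chromosome 5, which also holds Ppbp, Pf4, Cxcl3 and Cxcl15. Pf4, platelet factor 4, is the other member measured there. It read 72.0, 45.4 and 76.2 in null mice, against 54.3, 73.7 and 13.4 in controls, all dim and overlapping. Ppbp, Cxcl3 and Cxcl15 were not analysed here.

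NF-kB is a textbook regulator of the ELR chemokines and of Cxcl9 and Cxcl10. Their promoters were set side by side after these genes were seen to lie higher in every null mouse. Cxcl5 had no promoter to show. Any part of NF-kB in the changes was not tested. The sequences are RefSeq's, build GRCm38.p6, and each shows the bases from 200 to 51 before the annotated start of the gene, 5′ to 3′ on the gene's own strand. They lie at chr5:90891045-90891194 (plus strand) for Cxcl1, chr5:90903699-90903848 (plus) for Cxcl2, chr5:92328130-92328279 (minus) for Cxcl9 and chr5:92348940-92349089 (minus) for Cxcl10. Capitals mark matches to the NF-kB word GGGANNTTC on either strand.
Cxcl1: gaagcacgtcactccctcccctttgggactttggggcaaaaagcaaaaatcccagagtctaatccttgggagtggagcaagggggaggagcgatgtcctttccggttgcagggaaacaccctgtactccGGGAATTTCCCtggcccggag
Cxcl2: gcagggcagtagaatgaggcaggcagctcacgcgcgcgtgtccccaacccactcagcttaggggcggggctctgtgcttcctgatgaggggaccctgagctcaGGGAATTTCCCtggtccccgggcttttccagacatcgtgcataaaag
Cxcl9: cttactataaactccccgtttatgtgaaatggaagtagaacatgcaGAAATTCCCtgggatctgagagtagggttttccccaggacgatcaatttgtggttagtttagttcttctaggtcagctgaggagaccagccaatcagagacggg
Cxcl10: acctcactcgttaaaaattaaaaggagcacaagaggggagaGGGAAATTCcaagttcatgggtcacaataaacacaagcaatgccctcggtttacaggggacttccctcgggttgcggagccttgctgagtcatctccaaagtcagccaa

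Cxcl1 and Cxcl2 carry the same 11 bases, GGGAATTTCCC, beginning 71 and 97 bases before the start, which match the word on both strands by 2 overlapping matches. In Cxcl9 the match lies on the minus strand and begins 154 bases before the start, and in Cxcl10 it lies on the plus strand and begins 159 bases before it. Of the 43 member genes, 35 had a promoter of 300 bases in the table (250 before to 50 after the start); Ccl2, Ccl4, Ccl5, Ccl7, Ccl11, Ccr7, Cxcl5 and Cxcr5 did not. The word was found in 7 of 37 member promoters (18.9%), those of Ccl1, Ccr3, Cxcl1, Cxcl10, Cxcl2, Cxcl9 and Cxcr2, against 3.94% of all 32851 promoters in the table. Ccl1, Ccr3 and Cxcr2 carried it and overlapped between the groups, whereas Ccl8, Ccl9 and Ccr2, higher in every null mouse, had no match in their windows. A second word, TTCNNNGAA, the GAS element bound by STAT factors, was found on either strand in 4 of 37 member promoters (10.8%), those of Ccl17, Ccr1l1, Ccr6 and Cxcl14, against 8.30% of all. A match describes the letters only, and a missing match means only that these spellings were absent, since no others were searched.

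Cxcl9 and Cxcl10 were higher in every null mouse, but neither is a call. Cxcl9 read 165.2, 485.2 and 265.1 in null replicates 1 to 3, against 81.7, 137.0 and 89.5 in control replicates 1 to 3. The groups did not overlap, although null replicate 1 stood close to control replicate 2. Its log2 change was 1.37 (SE 0.38, adjusted p = 0.111), and its means were 305.2 ± 163.7 in nulls and 102.7 ± 29.9 in controls (SD, n = 3 each), at least 2.38-fold higher. Cxcl10 read 95.7, 99.1 and 59.3 in nulls, against 42.6, 43.6 and 29.7 in controls; all 6 lay under the filter level and it was not tested. The female null mouse, replicate 2, was the lowest of the nulls for Cxcl1, Cxcl2, Cxcl5 and Ccl8 and the highest for Cxcl9 and Cxcl10. The effect of genotype did not pass as different between the sexes for any member: limma's interaction term called 0 of the 20 and 0 of all 7601, and at an unadjusted p under 0.05 it held 0 of the 20 and 236 of all. Each genotype had a single female, assumed in that fit to vary like the males.

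The receptors of these chemokines were too dim to be tested. Cxcr2, the receptor of the ELR chemokines on neutrophils, read 47.2, 31.9 and 47.7 in null mice, against 52.4, 32.4 and 48.3 in controls, all under the filter level and overlapping. Cxcr3, the receptor of Cxcl9 and Cxcl10, read 135.1, 89.5 and 54.6 in nulls, against 117.4, 89.7 and 88.6 in controls. The other CXC receptors lay under the filter level in all mice. Cxcr4, the receptor of Cxcl12, read between 24.3 and 53.1 in nulls, against 33.7 to 41.7 in controls. Cxcr5, the B cell receptor for Cxcl13, read 75.3 in null replicate 1 and at most 17.0 in the other nulls, against 12.3 to 21.1 in controls.

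Markers of the cells these chemokines attract were read beside them. Of 13 neutrophil marker genes measured, 9 were dim and 4 tested, and none passed. Their summed level was between 2011 and 2406 in null mice, against 1338 to 2396 in controls. These sums overlapped, as did those without the brightest gene, Csf3r (1223 to 1340 in nulls, against 815 to 1295 in controls). Yet 3 dim genes of the 13, S100a8, S100a9 and Mpo, were higher in every null mouse, where 10.4% of all probe sets were, and none was lower in every null mouse. S100a8, a subunit of calprotectin, read 142.0, 99.2 and 70.2 in nulls, against 26.9, 61.3 and 55.9 in controls. Its partner S100a9 read 93.8, 18.4 and 58.1 in nulls, against 15.5, 15.6 and 4.0 in controls. Myeloperoxidase, Mpo, read 57.8, 74.3 and 73.9 in nulls, against 39.6, 30.2 and 53.1 in controls. All but 1 of these values lay under the filter level, and none of the 3 genes was tested; Ly6g and Ngp, also defining markers, were dim and overlapped. The T cell sums were 1046 to 1230 in nulls, against 787 to 1722 in controls, and the NK cell sums 963 to 1674 in nulls, against 902 to 1339 in controls. Here too the groups overlapped. In each list 1 gene, of 12 T cell and 6 NK cell genes, was lower in every null mouse and 0 higher, where 8.65% of all probe sets were lower. Cd8a read 18.7, 22.3 and 20.4 in nulls, against 64.7, 100.5 and 34.6 in controls. Klrd1 read 64.7, 71.3 and 28.1 in nulls, against 105.5, 134.3 and 97.8 in controls. Both were too dim to be tested.

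Other marker lists did differ. The 11 mast cell genes summed to between 4661 and 12325 in null mice, against 822 to 1010 in controls. The lowest of these null sums belonged to replicate 2. Of 5 tested members 3 were called higher, the proteases Mcpt1, Mcpt2 and Cpa3, against 1.13% of all tested probe sets. Cpa3 entered the test only through the null mice, since its controls (30.6, 25.6 and 13.5) lay under 109.7. Among controls, Mcpt1 and Mcpt2 exceeded that level in replicate 1 alone, at 189.3 and 133.6. The count of 3 thus carries a choice by the group that was high. Fcer1a and Ms4a2, both dim, were higher in every null mouse as well, making 5 of the 11, where 10.4% of all probe sets were. The other mast cell genes overlapped, among them the tested Kit (log2 change -0.04) and Tpsb2 (log2 change -0.38). Mcpt1 was read by a probe set with a name ending in _f_at. The 9 B and plasma cell genes measured summed to between 7589 and 9099 in nulls, against 4834 to 5261 in controls. Of the 7 tested, 1 was called higher, the immunoglobulin joining chain Jchain, again beside 1.13% of all tested probe sets. Jchain averaged 5564 ± 585 in nulls and 3222 ± 375 in controls (SD, n = 3 each, adjusted p = 0.0217). Jchain and Blnk, an adaptor of the B cell receptor, carried the gap. Blnk, by a probe set with a name ending in _g_at, read 1805.8, 2131.8 and 1205.5 in nulls, against 771.7, 292.4 and 762.9 in controls (adjusted p = 0.0796). The other 7 genes overlapped, among them the B cell antigens Cd79a (log2 change -0.22) and Ms4a1 (log2 change -0.28). The 3 platelet genes summed to between 407.2 and 413.5 in nulls, against 324.5 to 378.0 in controls, without a call. Gp1bb alone set that gap. The other 2 genes, both dim, summed to between 93.3 and 146.5 in nulls, against 130.6 to 143.0 in controls, and overlapped. Endothelial sums, 1907 to 2350 in nulls against 2003 to 2368 in controls, and erythroid sums, 1595 to 2657 in nulls against 1324 to 3312 in controls, overlapped. The part of these cells in the changes of chemokine transcripts was not tested.

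**Figure D2:**
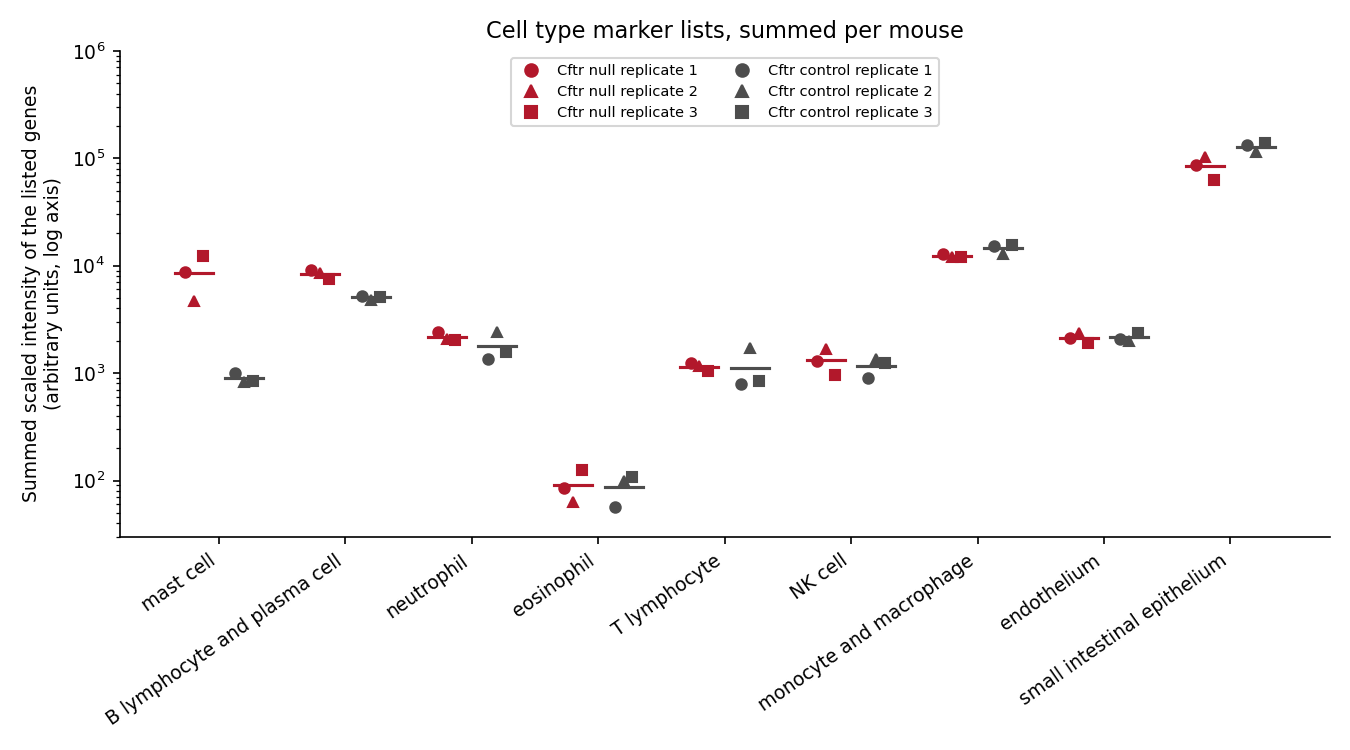
Summed scaled intensity (log axis, arbitrary units) of the measured genes of 9 marker lists, for 3 Cftr null mice (red, left) and 3 Cftr control mice (grey, right); each point is a mouse and short lines are group means. The groups are apart for the mast cell, B lymphocyte and plasma cell, monocyte and macrophage, and epithelial lists, and overlap for the others plotted; the monocyte and macrophage sums, lower in nulls, lie the other way round without Lyz2.

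Among inflammatory CC chemokines, which attract monocytes, T cells and other leukocytes, Ccl9 and Ccl8 lay higher in every null mouse and the rest overlapped. Of 12 genes of this kind, 5 had a tested probe set and none passed. At an unadjusted p under 0.05 there was 1 of the 5, against 17.3% of all tested probe sets. Ccl9, a ligand of Ccr1, read 1283.9, 1226.9 and 1294.7 in null replicates 1 to 3, against 749.9, 508.6 and 912.2 in control replicates 1 to 3. The null mice lay within a narrow band above all controls. The means were 1268 ± 36.4 in nulls and 724 ± 203 in controls (SD, n = 3 each), with a log2 change of 0.84 (SE 0.20, adjusted p = 0.0766), or 1.79-fold. It passed in 1 of 16 alternatives, without control replicate 3 (log2 change 1.02, adjusted p = 0.0452). In the others its adjusted p reached up to 0.206, without null replicate 1.

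Ccl8, also known as MCP-2, read 171.5, 60.5 and 208.1 in null replicates 1 to 3, against 27.8, 34.6 and 41.3 in control replicates 1 to 3. It exceeded the filter level in 2 mice, both null, and was therefore not tested. Its near relatives and neighbours on chromosome 11, Ccl2, Ccl7, Ccl12 and Ccl11, did not share this. Ccl2 (MCP-1), the main ligand of Ccr2, read 96.8, 68.1 and 21.7 in nulls, against 11.0, 38.1 and 10.8 in controls, with an overlap between null replicate 3 and control replicate 2. Ccl7 read between 18.3 and 47.4 in nulls, against 24.4 to 42.9 in controls, and Ccl12 between 12.7 and 39.4 in nulls, against 14.3 to 28.8 in controls. Ccr2, the monocyte receptor of several of these, was the one receptor higher in every null mouse, at 150.4, 133.1 and 87.9, against 50.9, 70.9 and 53.5 in controls. Only 2 of these values exceeded the filter level, so Ccr2 was not tested either. With no filter, neither Ccl8 (adjusted p = 0.145) nor Ccr2 (adjusted p = 0.206) passed.

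Monocyte and macrophage markers were mixed. Of 13 such genes measured, 10 were tested, with a median log2 change of 0.07. None was called higher and 1 lower, the lysozyme Lyz2. Of all tested probe sets, 1.13% were called higher and 1.87% lower. The 13 genes summed to between 11990 and 12815 in null mice, against 12917 to 15431 in controls. Lyz2 alone set that direction: the other 12 summed to between 8093 and 9350 in nulls, against 7866 to 7988 in controls. Cd14, Cd68 and C1qc, 3 of the 13, were higher in every null mouse, where 10.4% of all probe sets were. Lyz2 and Fcgr1, 2 of the 13, were lower in every null mouse, where 8.65% of all probe sets were. None but Lyz2 was a call. Cd14, the lipopolysaccharide co-receptor, read 1105.3, 1156.1 and 1155.6 in nulls, against 901.0, 705.9 and 888.1 in controls (log2 change 0.46, SE 0.13, adjusted p = 0.122). The part of these cells in the values of Ccl9, Ccl8 and Ccr2 was not tested. Csf1r, the receptor that defines these cells, averaged 984.5 ± 197.6 in nulls and 1025.4 ± 27.9 in controls (SD, n = 3 each).

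The remaining inflammatory CC chemokines showed no separation of the groups. Ccl5 (RANTES), a product of activated T and NK cells, read 448.8, 609.3 and 209.8 in null mice, against 377.9, 743.0 and 719.5 in controls (log2 change -0.59, SE 0.40, adjusted p = 0.506). Ccl6, the neighbour of Ccl9 and like it a ligand of Ccr1, read 661.0, 454.6 and 401.2 in nulls, against 496.4, 349.0 and 585.8 in controls (log2 change 0.08, SE 0.24). Ccl22, a ligand of Ccr4 made by dendritic cells, read 329.9, 357.5 and 409.5 in nulls, against 351.7, 390.7 and 478.7 in controls (log2 change -0.14, SE 0.16). For each of these 3, the null and control values lay across each other.

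Dim members of this kind were Ccl3 and Ccl4, which macrophages and T cells make on activation, and Ccl17, the other ligand of Ccr4. Ccl3 read between 25.6 and 42.0 in null mice, against 19.2 to 103.5 in controls, Ccl4 did not exceed 42.7 in any mouse, and Ccl17 read between 24.8 and 78.3 in nulls, against 23.4 to 45.5 in controls. All overlapped. The tested probe set of Ccl1, a ligand of Ccr8, has a name ending in _g_at and read 114.7, 77.7 and 153.0 in nulls, against 94.6, 117.7 and 149.0 in controls. It gave a log2 change of -0.08 (SE 0.31), and the other Ccl1 probe set, dim in all mice, overlapped as well.

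The CC and CX3C receptors other than Ccr2 and Cx3cr1 overlapped between the groups. Ccr1, the receptor of Ccl9, Ccl6 and Ccl5, read 154.6, 104.5 and 158.0 in null mice, against 81.3, 234.5 and 112.1 in controls (log2 change 0.07, SE 0.38). Ccr6, which marks B cells and T helper subsets, read 221.4, 299.8 and 43.4 in nulls, against 45.3, 31.6 and 194.8 in controls, a wide spread in both groups (log2 change 0.99, SE 0.78, adjusted p = 0.575). The rest, Ccr1l1, Ccr3, Ccr4, Ccr7, Ccr8 and Ccr9, stayed under the filter level in every mouse.

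Ccl25 and Cxcl14, both made by epithelium, lay lower in every null mouse, but neither passed the test. Ccl25, also known as TECK, read 3967.9, 4249.1 and 2449.3 in null replicates 1 to 3, against 6128.5, 5341.1 and 6643.1 in control replicates 1 to 3. The highest null mouse lay below the lowest control. The means were 3555 ± 968 in nulls and 6038 ± 656 in controls (SD, n = 3 each), with a log2 change of -0.80 (SE 0.21, adjusted p = 0.101). Its receptor Ccr9, carried by gut-homing lymphocytes, read 61.0, 87.1 and 67.7 in nulls, against 76.5, 98.8 and 43.3 in controls, dim and overlapping.

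Cxcl14 (BRAK) read 111.4, 187.3 and 152.6 in null replicates 1 to 3, against 289.7, 300.1 and 288.3 in control replicates 1 to 3. The controls lay within a narrow band, above all null mice. The means were 150.4 ± 38.0 in nulls and 292.7 ± 6.45 in controls (SD, n = 3 each), with a log2 change of -0.93 (SE 0.20, adjusted p = 0.0556), just short of the threshold. It passed in 3 of the 15 alternatives that tested it. These were quantile normalization (adjusted p = 0.0453), scaling to equal medians (adjusted p = 0.0479) and leaving out null replicate 2 (adjusted p = 0.0436). In the others it did not pass, with an adjusted p of up to 0.170, without control replicate 1.

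Beside these lower values, the 12 measured genes of the small intestinal epithelium list summed to between 63191 and 101719 in null mice, against 113243 to 137912 in controls. At an unadjusted p under 0.05 there were 5 lower and 0 higher, against 621 lower and 692 higher of all 7601 tested probe sets. None of the 12 genes was called, and their median log2 change was -0.53. Among them, chosen after their values were seen, lactase, Lct, read 714.5, 4815.5 and 569.1 in nulls, against 11317.3, 10927.9 and 10865.6 in controls (adjusted p = 0.0606), while keratin 20, Krt20, averaged 14360 ± 1176 in nulls and 15585 ± 1412 in controls (SD, n = 3 each). The part of the epithelial markers in the values of Ccl25 and Cxcl14 was not tested.

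**Figure D3:**
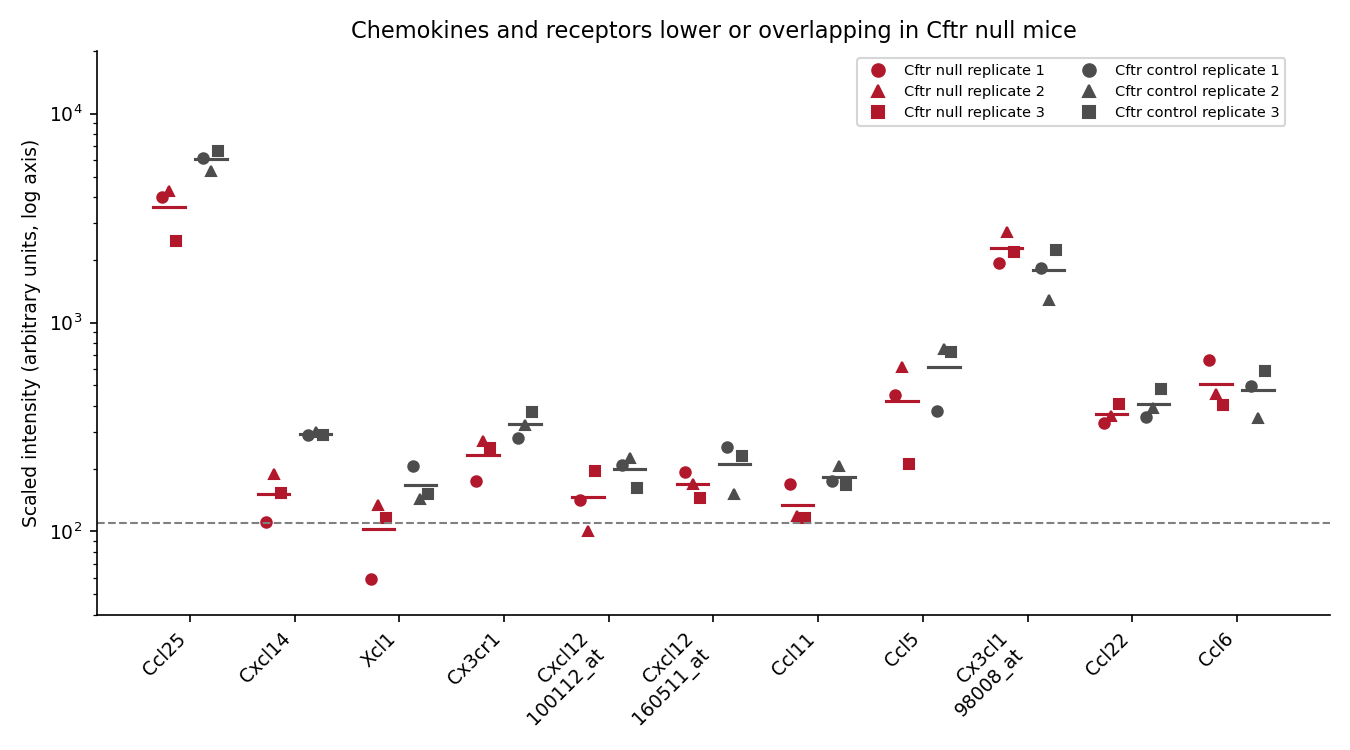
Scaled intensity (log axis, arbitrary units) of tested members that were lower in every Cftr null mouse (the 4 on the left, Ccl25, Cxcl14, Xcl1 and Cx3cr1) or, for the rest drawn, whose groups overlapped; Cftr null mice are red and left, Cftr control mice grey and right, each point is a mouse, short lines are group means and the dashed line is 109.7. The 3 controls of Cxcl14 lie between 288.3 and 300.1, above all null mice.

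Xcl1 and Cx3cr1 were the other members lower in every null mouse, and neither passed. Xcl1 (lymphotactin), a product of activated T and NK cells, read 59.3, 133.4 and 115.6 in null mice, against 205.2, 142.7 and 151.2 in controls, with null replicate 2 close to control replicate 2 (log2 change -0.68, SE 0.32, adjusted p = 0.324). Cx3cr1, the fractalkine receptor of intestinal macrophages, read 174.0, 271.4 and 250.3 in nulls, against 280.8, 324.8 and 374.6 in controls (log2 change -0.49, SE 0.20, adjusted p = 0.266). Its ligand Cx3cl1, the membrane-anchored fractalkine of endothelium and epithelium, read 1930.9, 2701.4 and 2172.7 in nulls, against 1828.0, 1286.4 and 2213.4 in controls (log2 change 0.37, SE 0.21, adjusted p = 0.427). A second Cx3cl1 probe set, with a name ending in _r_at, read 206.7, 35.8 and 195.6 in nulls, against 50.1, 157.4 and 49.6 in controls, a wide spread within both (log2 change 0.58, SE 0.67).

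Cxcl12 and Cxcl13, CXC chemokines of steady tissue traffic, overlapped. Cxcl12 (SDF-1), made by stromal cells, was read by 2 tested probe sets, with log2 changes of -0.45 (SE 0.26) and -0.28 (SE 0.23). The first read 141.1, 100.2 and 195.5 in null mice, against 209.0, 224.3 and 160.9 in controls, and the other 191.6, 168.9 and 145.0 in nulls, against 252.5, 150.4 and 228.6 in controls. The remaining Cxcl12 probe set, with a name ending in _f_at, was dim. Cxcl13, which guides B cells into follicles, was dim too, between 25.6 and 68.9 in nulls, against 53.8 to 69.0 in controls.

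Ccl11, the eotaxin of the intestine, read 168.3, 118.6 and 115.5 in null mice, against 174.2, 204.8 and 166.1 in controls (log2 change -0.42, SE 0.22, adjusted p = 0.372). The groups overlapped only through null replicate 1 and control replicate 3, which read 168.3 and 166.1. Its receptor Ccr3 read between 20.9 and 97.3 in nulls, against 11.5 to 76.3 in controls, and the 4 eosinophil genes measured, among them the peroxidase Epx and the major basic protein Prg2, were all dim. Their sum was between 63.7 and 125.9 in nulls, against 56.4 to 108.8 in controls.

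The atypical receptors, which bind chemokines without G protein signalling and so clear them, overlapped as well. Ackr4, which takes up Ccl25 and other homeostatic chemokines, read 94.6, 203.6 and 169.6 in null mice, against 182.5, 197.5 and 179.2 in controls (log2 change -0.30, SE 0.27, adjusted p = 0.628). Ackr3, which takes up Cxcl12, read between 93.9 and 110.1 in nulls, against 72.2 to 108.1 in controls. Ackr1 and Ackr2, which take up inflammatory chemokines, were under the filter level in every mouse.

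**Figure D4:**
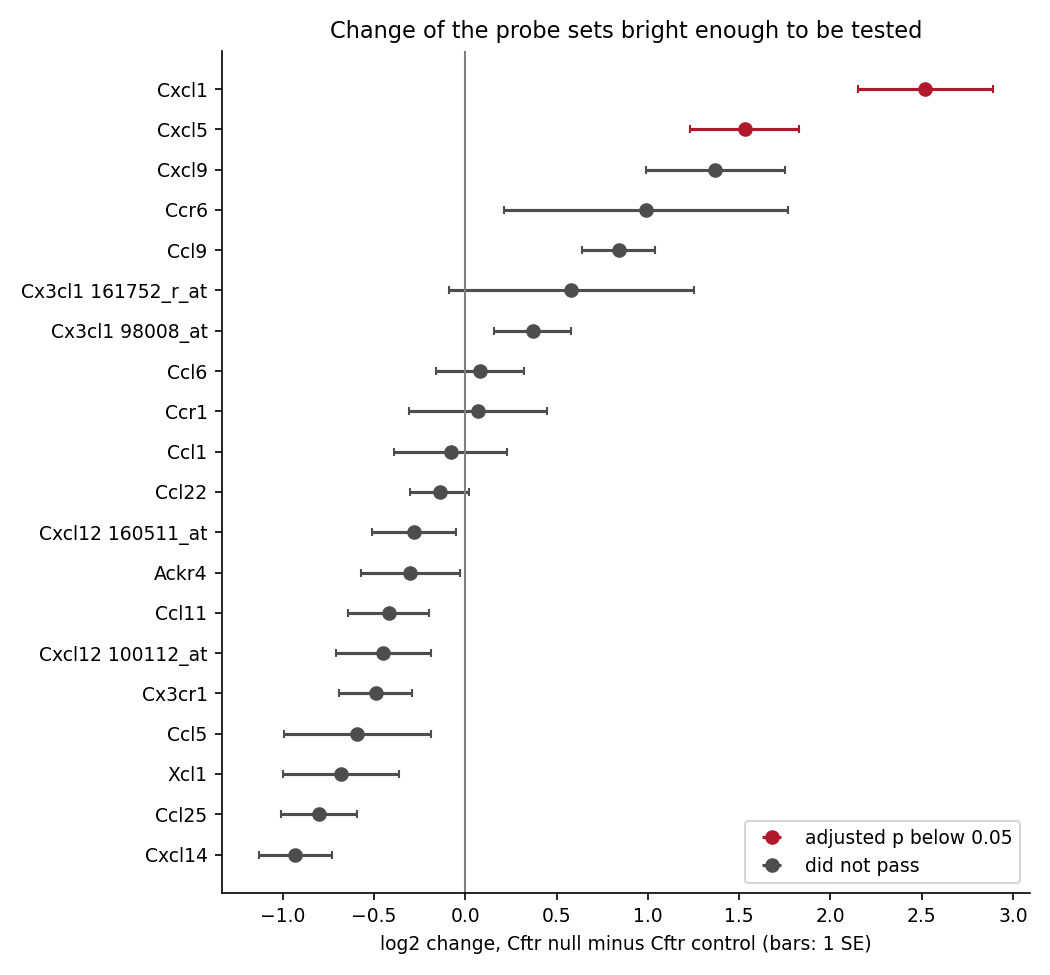
Log2 change (Cftr null minus Cftr control, on the log2(value + 12) scale) of the 20 tested member probe sets, in order of size, with bars of 1 SE; red points passed at an adjusted p under 0.05. Cxcl1 (2.52) and Cxcl5 (1.53) passed, and Cxcl14 (-0.93) and Ccl25 (-0.80) have the lowest values.

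Genes around the chemokine pathway were read from 4 lists, and none of their tested members passed in either direction. Of the cytokines, receptors and transcription factors that induce chemokines, 37 were measured and 26 tested, with a median log2 change of 0.05. At an unadjusted p under 0.05, 3 of the 26 were higher and 2 lower, against 17.3% of all tested probe sets in either direction. Fos, a subunit of the AP-1 factor, averaged 2879 ± 1180 in null mice and 4308 ± 402 in controls, and the interferon regulatory factor Irf1 averaged 2507 ± 366 in nulls and 1837 ± 105 in controls (SD, n = 3 each). Tnf and Il1b, the inflammatory cytokines that induce Cxcl1, were dim; they are named after their values were seen. Tnf read 37.0, 45.1 and 35.4 in nulls, against 25.1, 25.1 and 29.0 in controls, without overlap. Of all probe sets, 10.4% were likewise higher in every null mouse. Il1b read 73.1, 19.9 and 37.1 in nulls, against 30.2, 19.9 and 21.9 in controls, with overlap. Nfkbia, the NF-kB inhibitor that NF-kB itself induces, was also chosen after its values were seen. It averaged 1668 ± 112 in nulls and 1213 ± 123 in controls (SD, n = 3 each; log2 change 0.46, adjusted p = 0.102). The other tested NF-kB subunits and inhibitors had log2 changes of 0.07 (Nfkb2), 0.13 (Rela), -0.12 (Relb) and 0.28 (Nfkbib). Tnfaip3 overlapped, at 209.1, 53.7 and 513.6 in nulls, against 93.0, 169.3 and 38.3 in controls.

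Of the signalling proteins that act behind chemokine receptors, 24 of 30 measured genes were tested, with a median log2 change of -0.03. At an unadjusted p under 0.05, 3 were higher and 0 lower. Beside this count and those of the next lists stands the share over all tested probe sets, 17.3% in either direction. The small GTPase Rac1 averaged 8813 ± 909 in null mice and 9827 ± 1060 in controls, and the inhibitory G protein subunit Gnai2 8401 ± 897 in nulls and 8096 ± 1367 in controls (SD, n = 3 each). Of 18 adhesion and homing genes measured, 7 were tested (median log2 change -0.11, 1 higher and 0 lower at an unadjusted p under 0.05). The integrin Itgax averaged 497.7 ± 24.1 in nulls and 563.3 ± 57.7 in controls, and the selectin ligand Selplg 478.8 ± 66.4 in nulls and 426.2 ± 94.0 in controls (SD, n = 3 each). Of 11 genes that cut or bind chemokines, 6 were tested (median log2 change 0.17, 2 higher and 1 lower at an unadjusted p under 0.05). Adam10, the protease that sheds Cx3cl1, averaged 981.9 ± 66.2 in nulls and 747.5 ± 79.5 in controls, and the syndecan Sdc4 615.2 ± 112.7 in nulls and 576.3 ± 46.2 in controls (SD, n = 3 each).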

How the data were processed

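Total RNA of the entire small intestine of 6 mice was prepared with TRIzol and hybridized to 1-colour Affymetrix arrays, 1 mouse each, per the labels. The deposited values are probe set intensities that the authors had scaled, as their equal trimmed means show (largest deviation 0.0041%); the software, its background correction and detection calls are not given in the sources used here. They were used as deposited, without 66 control probe sets, and turned into log2(value + 12), 12 being the 10th percentile of the positive values; a fold change on this scale understates changes of dim genes. The test was limma's (lmFit and eBayes with a variance trend, package version 3.58.1 under R 4.3.3), two-sided, null minus control, on 7601 probe sets above 109.7 in at least 3 arrays. The functions were tested on simulated data. Nothing says whether the mice came from separate litters, so p-values measure the spread between these mice; the labels state no pairing or batch.

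A fold is a bound where 1 group's log2-scale mean did not exceed that of 109.7: it then sets the other group's mean against that level. Genes were named from the platform annotation given (10833 probe sets with 1 symbol, 396 with several, 1193 with none); all 48 members matched the RefSeq gene table, with 0 symbols changed. Endings _g_at, _f_at and _r_at were read alike as marks of possible cross-hybridization. Of the list genes named, Blnk, Mcpt1 and Gnai2 were read by such probe sets. Cd68 and Fcgr1 were read by probe sets with names ending in _s_at, an ending not marked here. List genes were read from the highest of their tested probe sets by mean over the 6 mice. Every member is named. Of pathway lists, up to 4 members past the threshold were to be named, or otherwise the highest 2 by level; any other list gene was picked with its values in view. The members, lists, tests and alternatives were chosen with earlier results of these data known. Alternatives left out each mouse in turn or the females, added sex to the model, dropped the variance trend or made it robust, set the pseudocount to 3 or 48, removed the filter or raised it to 288.7 (the 60th percentile), and normalized by quantiles or to equal medians.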

Additional observations from a re-analysis of the deposited data

How the results depend on the processing

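The 20 tested members gave 306 log2 changes over 16 alternatives, of which 282 kept their direction and their side of the threshold, 11 were no longer past it, 4 came past it and 9 changed sign. Those 9 were of members near 0: Ccr1, between -0.23 and 0.47 over the fits that leave out a mouse; Ccl1, 0.30 in males only and between -0.29 and 0.15 over the fits that leave out a mouse; and Ccl6, between -0.12 and 0.24 over those. Members called higher numbered 2, but 1 with sex as a covariate, 1 in males only and 0 with the filter at 288.7, which left 6 of them tested, and between 0 and 2 without each mouse in turn. With no filter there were 3, the third being Cxcl2. Members called lower numbered 0, but 1 with quantile normalization or scaling to equal medians, in each case Cxcl14, and between 0 and 1 without each mouse in turn. Over all probe sets, 86 higher and 142 lower became 50 and 85 in males only, 49 and 92 without a variance trend, and between 17 and 68 higher and between 35 and 117 lower without each mouse in turn. Signal over background limits what can be said of the 25 member genes that were not tested. No paired analysis was possible because the labels number no replicates and the numbers used here only name the mice. The titles of null replicate 3 and control replicate 1 are codes that begin alike, with no meaning given, and no block was built from them.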
